A study of Mus musculus with 12 samples.

Results

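The chemokine and chemokine receptor genes were examined in RNA-Seq of 12 whole mouse lungs. The members were the protein-coding genes of the count table whose symbols name a Ccl, Cxcl, Cx3cl or Xcl ligand with its number, a Ccr, Cxcr, Cx3cr or Xcr receptor, or an atypical receptor (Ackr). This choice used names only and gave 68 of the 55487 genes listed, 45 of them ligand genes and 23 receptor genes, with 62 different symbols because some ligands are listed in several copies. All mice were C57BL/6J and miR-30a-/-, with the whole miR-30a gene removed by CRISPR/Cas9. Pups breathed hyperoxia (95% FiO2) from postnatal day (PND) 1 to PND 5 or stayed in room air, and lungs were taken on PND 21, when the exposed pups had long been back in room air. There were 3 lungs in each of 4 groups: room air females, hyperoxia females, room air males and hyperoxia males. Pups of several litters were pooled and then assigned, the dams were rotated, and the right ventricle was perfused with PBS before the lungs were frozen. Since the controls carry the same deletion, no comparison here bears on miR-30a itself, and wild-type lungs were not analysed here.

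Chemokines are small secreted proteins that direct the movement of leukocytes. They bind to surface glycosaminoglycans and signal through G protein-coupled receptors, whereas the atypical receptors take chemokines up without G protein signalling. In the lung, macrophages, epithelium and endothelium make inflammatory chemokines after oxygen injury, and neutrophils and monocytes follow them into the airspaces. Other chemokines are made without injury and place lymphocytes, dendritic cells and progenitor cells in the tissue.

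Several values set limits on the whole data set. The gene counts summed to 8763033 in the shallowest lung and 16741694 in the deepest. The detection floor was set at 3 counts, which is 0.191 to 0.327 CPM, the unit used throughout for counts scaled by normalised library size. Olfactory and vomeronasal receptor genes, which lung is not known to use widely, took 0.41% to 0.945% of the counts in a lung. Their median reads per kilobase of exon served as a measure of background reads spread over the genome. Room air female replicates 2 and 5 had shares of 0.517% and 0.41%, room air female replicate 6 had 0.739%, and the hyperoxia females had 0.669% to 0.847%. The sum of 5 red cell genes was 1247 to 4650 CPM in the hyperoxia lungs and 5118 to 7881 CPM in the room air lungs. The sum of 7 skeletal muscle genes was 2227 CPM in room air male replicate 1 and at most 203.5 CPM in each other lung. Mir30a had 0 counts in all 12 lungs, as had its neighbour Mir30c-2, so the deletion could not be checked at this depth. In a bulk sample, fewer cells of a type and less RNA per cell cannot be told apart.

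The first results rest on sequences of 2 kinds, the near-identical coding sequences of the Ccl21 copies and the promoters of the neutrophil chemokine cluster on chromosome 5. The mature miR-30a-5p, product of the gene that the labels give as deleted in all 12 mice, is shown beside them for reference, from RefSeq (GRCm38.p6, chr1:23272274-23272295, plus strand), with its seed in capitals.
miR-30a-5p: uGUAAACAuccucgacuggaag

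Ccl21, which guides dendritic cells and naive T cells into lymphatic vessels and lymph nodes through Ccr7, could not be measured from these counts. All 7 genes listed as Ccl21a, Ccl21b, Ccl21c or Ccl21d had 0 counts in all 12 lungs, except for Ccl21d with 2 counts in room air male replicate 5. Both Ccl19 genes, Ccl27b and 2 of the 3 Ccl27a genes also had 0 counts. The coding sequences of Ccl21a (402 bases, ENSMUSG00000094686) and Ccl21b (ENSMUSG00000095675) differed at 2 bases, T84A and C194T, counted from 1 at the first base of the start codon with the Ccl21a base first. Ccl21b and Ccl21d had 0 differences over the 402 bases. The stretch from coding position 69 that holds both differences is shown in capitals at those bases, from GENCODE M21 (GRCm38), for Ccl21a on chr4:42773528-42773762 (minus strand) and Ccl21b on chr4:42255923-42256157 (plus strand), with the intron left out.
Ccl21a: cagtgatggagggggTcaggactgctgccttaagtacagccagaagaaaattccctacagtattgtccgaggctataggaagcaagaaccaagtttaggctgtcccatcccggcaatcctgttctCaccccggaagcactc
Ccl21b: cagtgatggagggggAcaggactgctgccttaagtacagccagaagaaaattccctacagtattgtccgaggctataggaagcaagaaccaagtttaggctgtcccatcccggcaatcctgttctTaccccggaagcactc
Apart from these bases the stretches are the same, so that most short reads from either gene would match both. Of all different 50-base stretches of annotated transcripts, 100% for Ccl21b, 98.1% for Ccl27b, 97.1% for Ccl21d, 71.6% for Ccl21a and 52% for Ccl19 also occurred in transcripts of another gene. Of the other genes that share these stretches, Gm13304, Gm10591 and Gm13306 also had 0 counts, whereas the pseudogene Gm12407, which shares stretches with Ccl19, had 13 to 40 counts. The third Ccl27a gene (ENSMUSG00000073888), which shared 45% of its stretches, had 111 to 186 counts per lung. How reads with several matches were counted is not given in the sources used here. The copies on scaffolds were not part of the shares given above, which may therefore be too low. How far a count of 0 limits the level of these genes thus cannot be told. Of the 12 genes without usable counts, 7 lie on scaffolds kept apart from the assembled chromosomes, and the other copies lie on the assembled chromosome 4. The 12 genes were left out of all tests, so 56 members were tested, 33 ligands and 23 receptors.

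Cxcl15 (lungkine, ENSMUSG00000029375, chr5:90794534-90803067), a neutrophil chemokine of lung epithelium, was by far the most abundant member. Its mean level was 552 CPM, or 259 CPM per kilobase of exon, which was 5.27 times the per-kilobase level of the next member, Cxcl14. It made up 40.2% of the summed mean CPM of all members. Its neighbours on chromosome 5 stood near background at the same time. Cxcl1, Cxcl2 and Cxcl3, the neutrophil chemokines induced by infection and injury, had mean levels of 1.89, 2.31 and 1.79 CPM per kilobase, which are 138, 112 and 145 times below that of Cxcl15. Background reads by the receptor gene measure came to 63.1%, 51.4% and 66.4% of their counts and to 0.439% of those of Cxcl15.

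The 120 bases before the start of each of these 4 genes are given because their levels lie so far apart within one cluster (RefSeq, GRCm38.p6, plus strand). Capitals mark TATAAA and the NF-kappaB consensus motif, searched on both strands. The windows are chr5:90785981-90786100 for Cxcl3, chr5:90794414-90794533 for Cxcl15, chr5:90891125-90891244 for Cxcl1 and chr5:90903779-90903898 for Cxcl2.
Cxcl3: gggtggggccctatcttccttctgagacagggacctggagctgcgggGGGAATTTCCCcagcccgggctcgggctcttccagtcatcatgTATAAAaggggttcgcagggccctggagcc
Cxcl15: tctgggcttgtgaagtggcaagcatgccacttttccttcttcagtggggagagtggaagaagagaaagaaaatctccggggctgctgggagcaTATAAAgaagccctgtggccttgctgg
Cxcl1: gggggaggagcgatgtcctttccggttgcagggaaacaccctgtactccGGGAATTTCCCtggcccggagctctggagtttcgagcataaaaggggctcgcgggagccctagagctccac
Cxcl2: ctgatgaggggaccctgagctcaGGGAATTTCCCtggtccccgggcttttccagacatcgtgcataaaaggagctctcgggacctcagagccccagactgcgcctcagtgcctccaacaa
The same run of letters, GGGAATTTCCC, which matches the NF-kappaB motif on both strands with overlap, stood in the windows of Cxcl1, Cxcl2 and Cxcl3. The window of Cxcl15 held TATAAA and no NF-kappaB match, and that of Cxcl3 held both. Among 32851 promoters of this length, 3.65% held the NF-kappaB motif and 6.34% TATAAA. Of the 54 member promoters found by symbol, 9 (16.7%) held the NF-kappaB motif, namely Ackr2, Ccl20, Ccl9, Ccr1, Ccr6, Cxcl1, Cxcl10, Cxcl2 and Cxcl3, and 11 (20.4%) held TATAAA. A match is a description of letters only.

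The members next in level after Cxcl15 came from several roles. Cxcl14, a chemokine of epithelium and stroma, had 49.2 CPM per kilobase. Ccl6, a macrophage chemokine, had 25.4. Cxcl12, which holds progenitor cells and leukocytes in tissue, had 18.7 CPM per kilobase, and its receptor Cxcr4 had 24.8. Cxcl17, a mucosal chemokine, had 11.6, Ackr2, a scavenger of inflammatory CC chemokines, had 9.98, and Cx3cl1 (fractalkine) had 8.92 CPM per kilobase. Cxcl16, Ccr7, Ackr3, Ccl17, Ccl5, Ccl26 and Ccl22 completed the 15 highest, with 8.11 to 5.11 CPM per kilobase. Neighbours in this order mostly overlapped: Ccl6 ran from 19.4 to 40.5 CPM per kilobase over the lungs and Cxcr4 from 15.2 to 35.1, whereas Cxcl15 ran from 146 to 397 and Cxcl14 from 31.1 to 71.4. The range of Cxcl15 therefore stayed above that of every other member.

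Measured against background, 19 of the 56 members, 14 ligands and 5 receptors, exceeded the 99th percentile of the receptor genes in all 12 lungs. Another 25 exceeded it in some lungs and 12 in none. Among those 12 were Cxcl2, Cxcl3, Cxcl5, Cxcl9, Cxcl10, Ccl20, Ccl28 and Ackr1. They include the interferon-induced ligands of Cxcr3 and most of the injury-induced ligands of Cxcr2, so none of these ligands stood clear of that background level in any lung on PND 21. For 13 members background came to 50% or more of the counts.

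**Figure D1:**
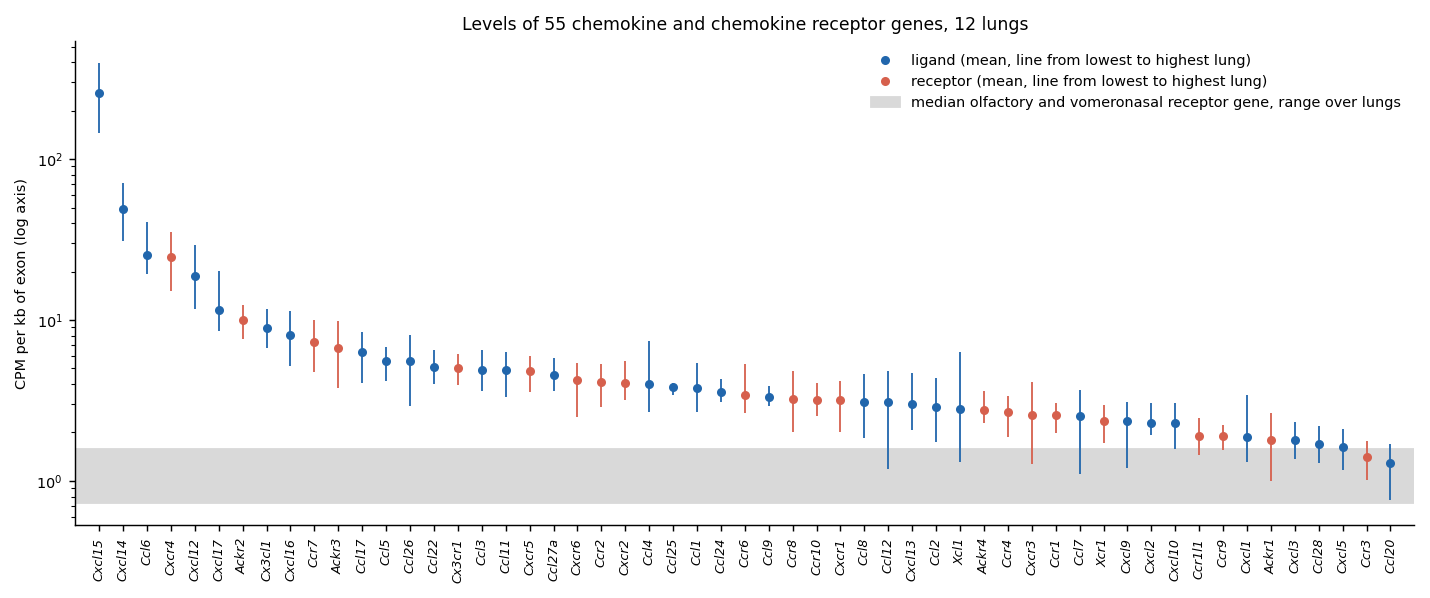
Levels of 55 of the tested members in CPM per kilobase of exon (log axis), ordered by mean over 12 lungs; points are means, lines run from the lowest to the highest lung, blue for ligands and red for receptors, and the grey band is the range over lungs of the median olfactory and vomeronasal receptor gene. Cxcl15 stands at 259 CPM per kilobase, and the members at the right end lie in or just above the band.

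Hyperoxia was compared with room air over all 12 lungs, as the mean of the female and male effects. None of the 56 members was called at an adjusted p under 0.05 and a fold over 1.5 (edgeR quasi-likelihood test, Benjamini-Hochberg), against 0.0415% of the 45828 genes tested. At an unadjusted p under 0.05 there were 3 members higher and 5 lower, against 2.67% and 2.52% of all genes, and DESeq2 gave 0 calls with 5 members under that p. The smallest adjusted p among members was 0.82, for Ackr3. The median log2 fold change of the members was −0.02 (25 higher, 31 lower) and that of all genes tested 0.03. Receptors had a median of −0.05 (15 of 23 lower) and ligands 0.01 (16 of 33 lower). The fitted changes ran from −0.47 to 0.46, within a fold of 1.5 in either direction. Alternative fits took some members past that fold, without a call. The furthest values were 0.71 for Cxcl5, 0.70 for Ccl4, 0.61 for Ccl17, 0.60 for Cxcr6 and −0.62 for Ccl2. Leaving out a lung took Cxcl15 to −0.63 at the lowest.

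**Figure D2:**
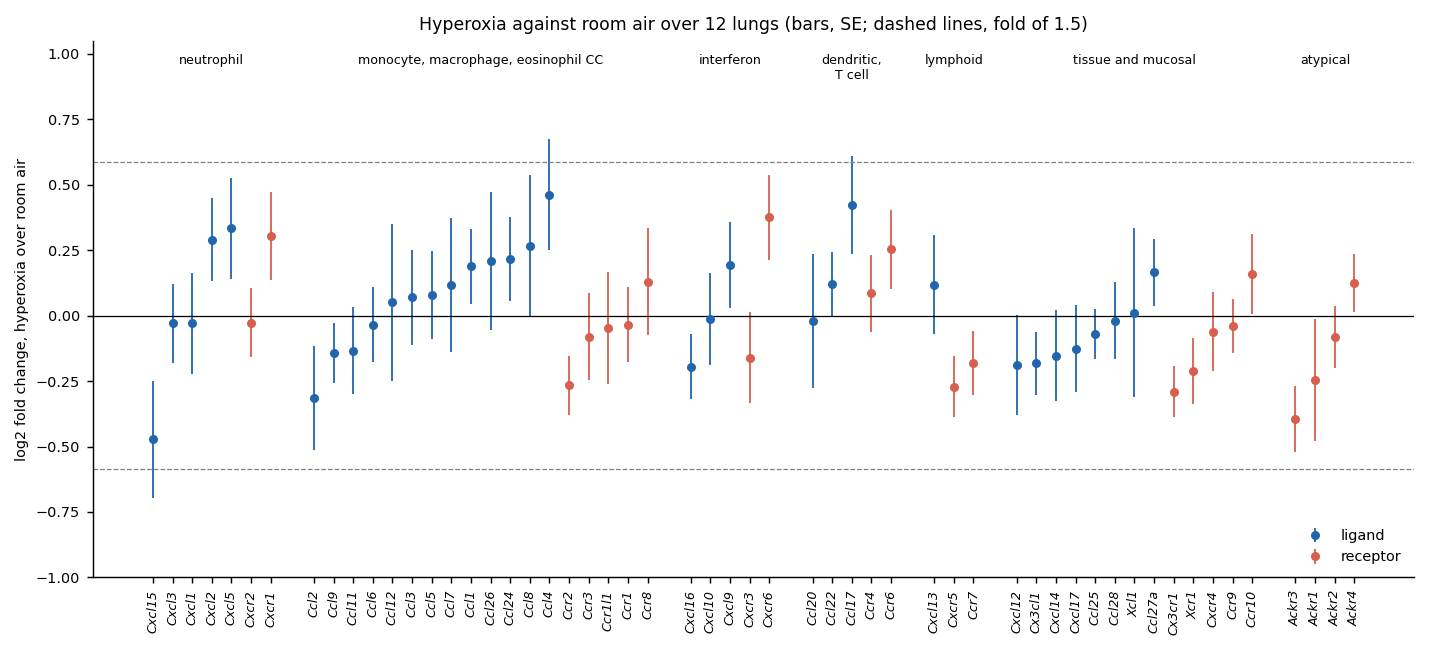
Log2 fold change of 55 of the tested members, hyperoxia over room air in 12 lungs (points, bars are SE), grouped by role, with ligands in blue and receptors in red. No point lies beyond the dashed lines at a fold of 1.5.

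Cx3cr1 (ENSMUSG00000052336, chr9:119901616-120069879), the fractalkine receptor of monocytes, tissue macrophages and some lymphocytes, was the only member whose exposure groups did not overlap over all 12 lungs. The room air lungs had a lowest value of 22.9, a median of 24.5 and a highest of 27.6 CPM, and the hyperoxia lungs 17.7, 20.6 and 21.9 CPM. By lung, females had 26.1, 24.3 and 24.7 CPM in room air and 20.2, 21.4 and 20.97 CPM in hyperoxia, and males 23.9, 27.6 and 22.9 against 21.9, 17.7 and 19.9 CPM. All 6 hyperoxia lungs thus lay below all 6 room air lungs, where 0.12% of all genes were lower without overlap and 0.0938% were higher without overlap. The log2 fold change was −0.29 ± 0.10 (SE), adjusted p = 0.87 by edgeR, with −0.26 in females and −0.32 in males. With RUVr factors, which model unwanted variation, the change was −0.29. Its adjusted p was 0.0071 with 1 RUVr factor and 0.0054 with 2, still under the fold of 1.5. These factors were taken from the residuals left after the group means. Here and for other members below, they could therefore hardly move a change and mainly narrowed its spread. Calls over all genes also rose with them, as given in the last section. Background reads made up 23.2% of the counts of Cx3cr1, and with these subtracted the change was −0.34. Its ligand Cx3cl1, which lies beside Ccl17 and Ccl22 on chromosome 8, had 29.5 to 46.0 CPM in room air and 26.2 to 39.2 CPM in hyperoxia, with overlap and a log2 fold change of −0.18 ± 0.12.

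Ccr2 (ENSMUSG00000049103), which brings inflammatory monocytes out of the bone marrow and into tissue, moved in the same direction with more overlap. Room air lungs ran from 26.7 to 36.3 CPM (median 29.3) and hyperoxia lungs from 19.4 to 29.2 CPM (median 25.04). The log2 fold change was −0.27 ± 0.11, adjusted p = 0.93 by edgeR. Markers of monocytes and interstitial macrophages were looked at beside these receptors: 10 of 14 were lower, 0 were called, and their median log2 fold change was −0.11, with Ly6c2 at −0.40 and Csf1r at −0.26. Their summed level was 607 to 1085 CPM in room air and 627 to 1010 CPM in hyperoxia, with no marker at 0 in all lungs. Ace alone had a mean of 585.5 CPM and Csf1r, the next highest marker, 75.0 CPM. The sum therefore mostly follows Ace and says little about the other markers. The red cell genes given above also separated the exposures, with all 5 lower, 3 of them called and a median of −1.24. Their part in the Cx3cr1 and Ccr2 values was not tested. The values without room air male replicate 1, the lung with muscle genes, were −0.30 for Cx3cr1 and −0.39 for Ackr3.

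Ackr3 (ENSMUSG00000044337, chr1:90203980-90216751), an atypical receptor that removes Cxcl12, had the smallest adjusted p. In females it stood at 33.0, 28.3 and 22.7 CPM in room air and at 21.6, 16.3 and 19.7 CPM in hyperoxia, without overlap. In males it stood at 23.6, 23.8 and 22.2 CPM in room air and 23.5, 12.6 and 22.1 CPM in hyperoxia, where hyperoxia male replicate 2 lay far below the rest. The log2 fold change was −0.39 ± 0.13 over all lungs, −0.54 ± 0.18 in females and −0.24 ± 0.18 in males, adjusted p = 0.82, 0.34 and 0.9998 by edgeR. Its adjusted p over all lungs was 0.00081 and 0.00029 with 1 and 2 RUVr factors, while the receptor share as a covariate brought the female effect to −0.25 (adjusted p = 0.94). Cxcl12, the ligand it shares with Cxcr4, had 115 to 241 CPM in room air and 95.9 to 181 CPM in hyperoxia, and Cxcr4 had 27.5 to 63.4 and 32.3 to 56.6 CPM. Neither separated the groups, with log2 fold changes of −0.19 ± 0.19 and −0.06 ± 0.15. Of the markers of vessels and stroma, 8 of 9 of capillary endothelium were lower (median −0.20, sums 1266 to 2356 CPM in room air and 1108 to 2118 CPM in hyperoxia) and 6 of 8 of fibroblasts and smooth muscle (median −0.23, sums 1801 to 3019 and 1119 to 2142 CPM), with 0 called. Their part in the Ackr3 and Cxcl12 values was not tested. The other atypical receptors were at −0.08 (Ackr2), −0.24 (Ackr1) and 0.12 (Ackr4), and 25.7% of the exon bases of Ackr1 are shared with Cadm3 on the same strand.

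Among the neutrophil chemokines, Cxcl15 had the lowest log2 fold change of all members, −0.47 ± 0.22 over all lungs (adjusted p = 0.93 by edgeR). With 1 and 2 RUVr factors it was −0.46, with an adjusted p of 0.07 and 0.037, under the fold of 1.5. Room air females had 800.5, 845 and 436 CPM and hyperoxia females 442, 419 and 520.2 CPM. Room air males had 515, 743 and 514 CPM and hyperoxia males 639, 310.5 and 436 CPM. The groups overlapped in both sexes, and the 2 highest values belonged to room air female replicates 2 and 5, which with hyperoxia male replicate 1 had the 3 lowest receptor gene shares. Markers of alveolar type 2 cells, the surfactant-making cells of the alveolus, were highest in the same 3 lungs, with sums of 10250, 12080 and 10270 CPM, and with 0 markers called all 8 were lower in hyperoxia females (median −0.54) and all 8 higher in hyperoxia males (median 0.18), where Cxcl15 was at −0.35 ± 0.32. Their part in the Cxcl15 values was not tested. With the log2 receptor share as a covariate the female effect on Cxcl15 was 0.0037 instead of −0.59. In females that share was 0.41% to 0.739% in room air and 0.669% to 0.847% in hyperoxia. It thus went partly with exposure, and the covariate and the exposure effect cannot be fully told apart. Cxcl14 followed the same lungs, with 130.4, 129 and 84.2 CPM in room air females and 89.0, 73.7 and 89.6 CPM in hyperoxia females, and its female effect of −0.45 ± 0.25 became 0.091 with that covariate. With 1 and 2 RUVr factors it was −0.42 in females, with an adjusted p of 0.0019 and 0.00044, under the fold of 1.5. Cxcl14 overlapped between the exposures in both sexes, with 57.1, 94.2 and 78.4 CPM in room air males and 122, 56.8 and 74.3 CPM in hyperoxia males. Cxcl5 and Cxcl2 were at 0.33 ± 0.19 and 0.29 ± 0.16 over all lungs, Cxcl1 and Cxcl3 at −0.03 each, the receptors Cxcr1 and Cxcr2 at 0.30 ± 0.17 and −0.03 ± 0.13. Markers of neutrophils had a median of −0.01 (8 of 12 lower, 0 called), with sums of 142 to 226 CPM in room air and 138 to 187 CPM in hyperoxia.

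The CC chemokines of monocytes, macrophages and eosinophils had a median of 0.07 (11 of 19 higher, 0 called). Ccl4 (ENSMUSG00000018930), a macrophage chemokine that attracts monocytes and T cells, had the highest log2 fold change of all members, 0.46 ± 0.21 over all lungs. Females had 2.10, 1.78 and 1.90 CPM in room air and 2.36, 2.27 and 3.01 CPM in hyperoxia, and males 2.99, 2.61 and 1.93 against 3.03, 4.90 and 3.03 CPM. The values did not overlap within either sex, but they rest on 23 to 45 counts per lung, and the adjusted p was 0.93 by edgeR. The effect was 0.40 in females, or 0.27 without hyperoxia female replicate 5, and 0.52 in males, or 0.28 without hyperoxia male replicate 2. Over the alternative fits it ran from 0.15 to 0.63 in females and from 0.51 to 0.77 in males. Ccl3, its close relative, was at 0.07 ± 0.18 and Ccl5, a T cell chemokine, at 0.08 ± 0.17. The abundant Ccl6 was at −0.03 ± 0.14, with 34.8 to 72.7 CPM in room air and 41.4 to 51.3 CPM in hyperoxia.

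Ccl17 and Ccl22, both ligands of Ccr4 made by dendritic cells and macrophages, were at 0.42 ± 0.19 and 0.12 ± 0.12 over all lungs. Ccl17 (ENSMUSG00000031780, chr8:94810453-94812036) had 2.66, 2.09 and 2.09 CPM in room air males and 4.36, 4.25 and 3.25 CPM in hyperoxia males. In females it had 3.05, 3.69 and 3.32 CPM in room air and 2.80, 3.65 and 4.04 CPM in hyperoxia. The male groups did not overlap and the female groups did, with log2 fold changes of 0.79 ± 0.27 and 0.06 ± 0.26. The difference between the sexes was −0.73 ± 0.38, adjusted p = 0.58 by edgeR. Ccl22 also separated the males, with 10.1, 12.1 and 12.6 CPM in room air and 15.1, 12.7 and 12.9 CPM in hyperoxia, a log2 fold change of 0.23 ± 0.17. Without room air male replicate 1 these male effects were 0.92 for Ccl17 and 0.14 for Ccl22, which was also at 0.14 without hyperoxia male replicate 1. Markers of dendritic cells had a median of 0.05 over all lungs, 0 called, with sums of 222 to 269 CPM in room air and 225 to 291 CPM in hyperoxia.

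Cxcr6, a receptor of resident T and NK cells, was at 0.38 ± 0.16 over all lungs (adjusted p = 0.93 by edgeR). Females had 9.07, 8.91 and 4.82 CPM in room air and 10.15, 10.45 and 7.22 CPM in hyperoxia, and males 6.48, 8.52 and 4.82 against 9.75, 9.58 and 8.20 CPM, with overlap in both sexes. The male effect was 0.47 ± 0.23, and 0.29 without room air male replicate 5. Its ligand Cxcl16 was at −0.19 ± 0.12, in a gene of which 18.3% of the exon bases overlap Zmynd15 on the opposite strand. Among the lymphoid homing genes, Cxcr5, the receptor of B cells and follicular T cells, was at −0.27 ± 0.12, with overlap in both sexes. Females had 19.6, 19.97 and 13.6 CPM in room air and 14.2, 16.6 and 15.6 CPM in hyperoxia, and males 14.2, 18.96 and 18.7 against 13.9, 11.9 and 15.1 CPM. Ccr7 was at −0.18 ± 0.12 and Cxcl13, the ligand of Cxcr5, at 0.12 ± 0.19. B cell markers were lower in 9 of 10, with 0 called and a median of −0.18, and their sums were 252 to 374 CPM in room air and 241 to 291 CPM in hyperoxia. Their part in the Cxcr5 value was not tested.

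**Figure D3:**
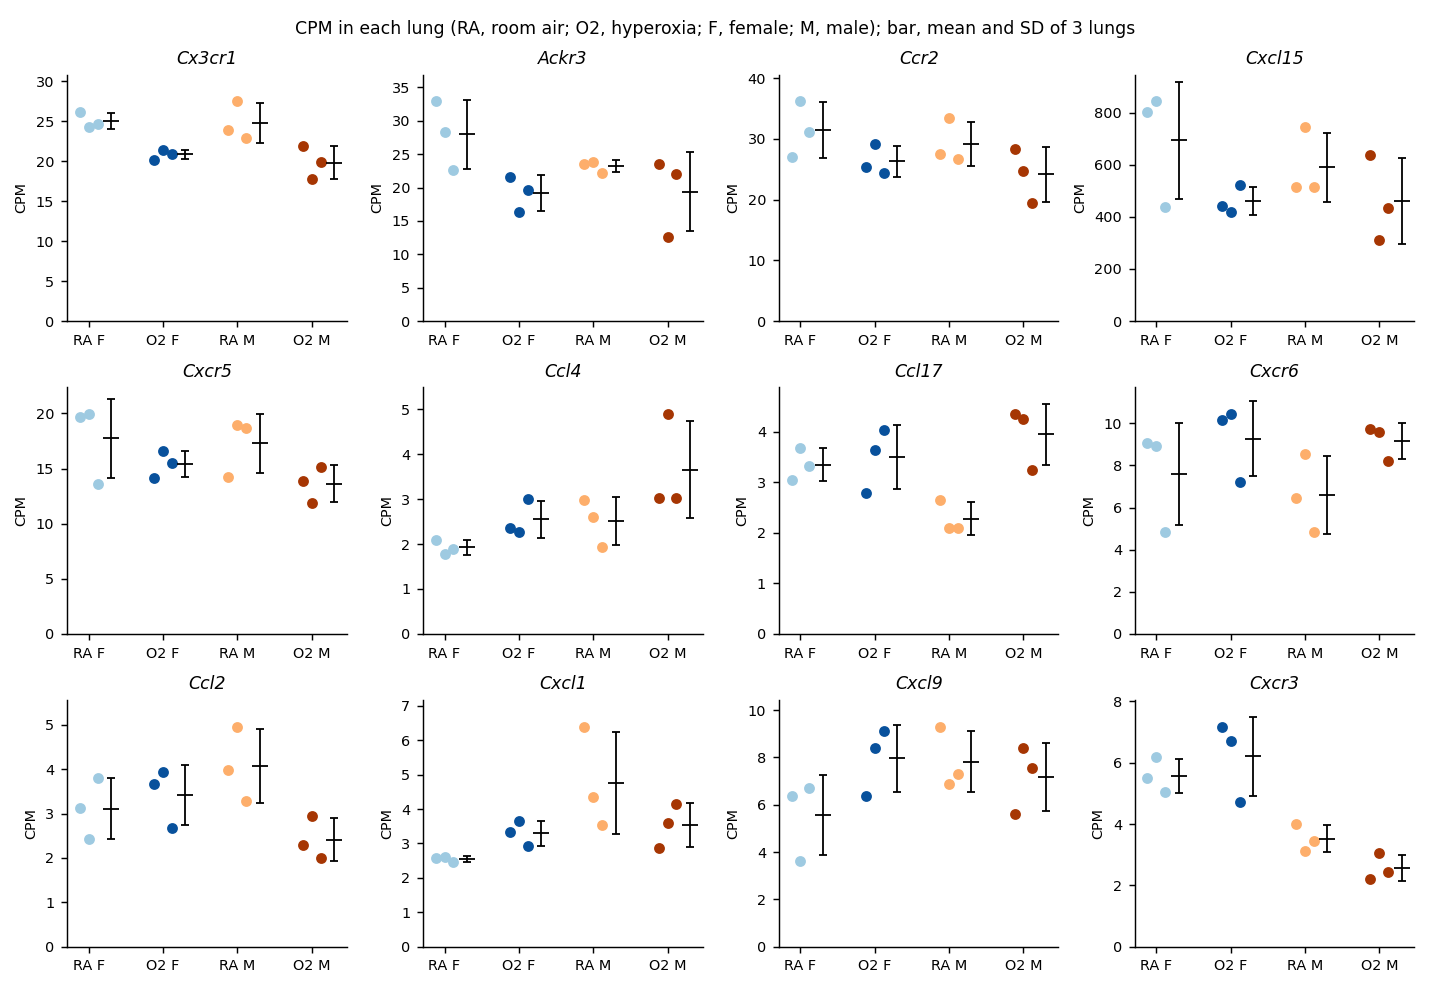
CPM of 12 members in each lung (points), by group (RA, room air; O2, hyperoxia; F, female; M, male), with the mean and SD of 3 lungs beside the points. Cx3cr1 is lower in every hyperoxia lung than in every room air lung, and Cxcr3 is higher in every female than in every male lung.

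In females alone, 0 of 56 members were called, against 0.00218% of all genes. There were 3 members higher and 1 lower at an unadjusted p under 0.05, against 7.32% and 5.28% of all genes, and DESeq2 gave 0 calls with 4 members under that p. Values did not overlap for 9 members higher and 3 lower, against 10.8% and 6.42% of all genes. The members therefore separated about as often as other genes did. Among the 9 were Cxcr1, Ccl27a, Cxcl1, Cxcl2, Cxcl5, Cxcl13 and Ccl4, and the 3 were Ackr3, Ccl25 and Cx3cr1. Cxcl9 had the highest female log2 fold change, 0.52 ± 0.23 (adjusted p = 0.38 by edgeR), with 6.37, 3.63 and 6.71 CPM in room air and 6.38, 8.38 and 9.11 CPM in hyperoxia. Cxcl13 followed with 0.50 ± 0.27, with 2.37, 2.42 and 3.32 CPM in room air and 4.02, 3.95 and 3.44 CPM in hyperoxia. Cxcl9 overlapped between the exposures and Cxcl13 did not. The female effect on Cxcl9 was 0.28 without room air female replicate 5 and 0.11 once the receptor share entered the fit. RUVr with 1 and 2 factors gave 0.53 with an adjusted p of 0.024 and 0.022, under the fold of 1.5. Cxcr1, a neutrophil receptor, was at 0.49 ± 0.24, with 4.74, 2.99 and 3.79 CPM in room air and 4.90, 5.13 and 6.19 CPM in hyperoxia. In males Cxcr1 had 4.07, 4.26 and 5.62 against 4.87, 4.90 and 5.32 CPM, with overlap (0.11 ± 0.24).

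Other members that did not overlap in females differed by smaller steps. Cxcl2 had 3.995, 4.20 and 4.19 CPM in room air and 4.72, 6.31 and 6.10 CPM in hyperoxia (0.47 ± 0.22). Cxcl5, another ligand of Cxcr2, had 2.17, 2.48 and 3.08 against 3.67, 3.25 and 3.09 CPM (0.38 ± 0.27), and in males 2.24, 3.13 and 3.05 against 3.32, 3.92 and 3.10 CPM, with overlap (0.29 ± 0.27). Both are among the members that stayed under the background percentile in all lungs. Ccl24, an eosinophil attractant, had 4.27, 4.13 and 4.03 against 4.46, 5.52 and 5.07 CPM (0.27 ± 0.22). Ccl27a, a skin chemokine whose reads could be split with its copies, had 10.7, 10.6 and 9.56 against 11.5, 11.4 and 10.74 CPM (0.12 ± 0.18, and 0.069 without room air female replicate 6), a gap between the groups far smaller than the spread within them. Ccl25, a ligand of Ccr9, was lower, with 30.3, 30.4 and 30.1 CPM in room air and 27.9, 27.6 and 25.6 CPM in hyperoxia (−0.16 ± 0.14).

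The female effects went with how near to background a member stood, in a comparison where the median of all genes was itself 0.11 and that of the members 0.11. Of the 13 members with 50% or more background, 12 were higher in hyperoxia females, with a median log2 fold change of 0.23, while the 1415 olfactory and vomeronasal receptor genes tested had a median of 0.45. Of the 15 highest members per kilobase, 11 were lower, with a median of −0.31. In males the same 13 members had a median of −0.22 (11 lower) where the receptor genes had −0.12, and the 15 highest had 0.086 (7 lower). Cxcl1, for example, had 2.57, 2.61 and 2.45 CPM in room air females and 3.32, 3.65 and 2.92 CPM in hyperoxia females, without overlap, and 6.39, 4.35 and 3.53 against 2.88, 3.59 and 4.13 CPM in males. The background measure moved with these members, and its part in their values was not tested gene by gene. With the receptor share as a covariate, 0 members were called in either sex.

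**Figure D4:**
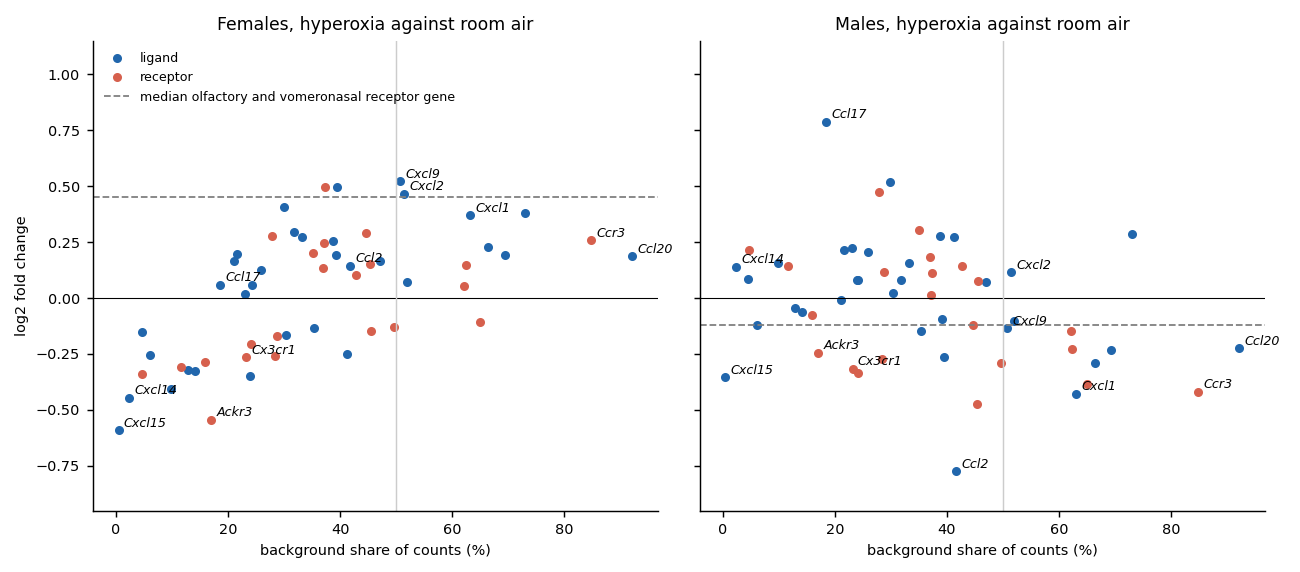
Log2 fold change of 55 of the tested members against the share of their counts that background reads make up (%), for females (left) and males (right), with ligands in blue and receptors in red. In females the members right of the grey line at 50% lie mostly above 0, with a median of 0.23 under the dashed receptor gene median of 0.45, and most of the abundant members lie below 0; in males the members right of the line lie mostly below 0.

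In males alone, 0 of 56 members were called, against 0% of all genes. There were 1 member higher and 2 lower at an unadjusted p under 0.05, against 0.899% and 1.8% of all genes, and DESeq2 gave 0 calls with 2 members under that p. Values did not overlap for 4 members higher (Ccl4, Ccl17, Ccl22 and Ccr10) and 5 lower (Ccl2, Ccl9, Cx3cr1, Cxcr3 and Xcr1), against 2.73% and 3.89% of all genes. Ccl2 (ENSMUSG00000035385, chr11:82035571-82037453), the main ligand of Ccr2, had 3.99, 4.96 and 3.29 CPM in room air males and 2.29, 2.94 and 1.99 CPM in hyperoxia males. In females it had 3.11, 2.42 and 3.79 CPM in room air and 3.67, 3.94 and 2.66 CPM in hyperoxia. The male groups were apart and the female groups overlapped, with log2 fold changes of −0.77 ± 0.29 and 0.14 ± 0.28 on 27 to 57 counts per lung. Over the alternative fits the male effect ran from −1.355 to −0.75. Background reads came to 41.7% of the counts of Ccl2.

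Cxcr3, whose values by lung are given with the comparison of the sexes, was also lower without overlap in hyperoxia males, at −0.47 ± 0.26 (−0.37 without room air male replicate 1). Ccr10, Xcr1 and Ccl9 were apart by smaller steps. Ccr10, a receptor of plasma cells and skin T cells, had 4.4, 5.57 and 5.70 CPM in room air and 5.76, 5.88 and 6.13 CPM in hyperoxia (0.18 ± 0.22, and 0.075 without room air male replicate 1). Xcr1, a receptor of cross-presenting dendritic cells, had 13.1, 11.1 and 11.8 against 7.68, 10.88 and 11 CPM (−0.29 ± 0.18, and −0.13 without hyperoxia male replicate 1). Ccl9, a macrophage chemokine, had 10.2, 11.04 and 10.3 against 9.30, 9.80 and 9.38 CPM (−0.15 ± 0.16). For these 3 the change was under 2 of its standard errors.

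The difference of the hyperoxia effect between females and males was tested as an interaction. None of the 56 members was called, against 0% of all genes, with 2 members higher in females at an unadjusted p under 0.05 and 0 lower, against 6.06% and 2.4% of all genes. Those 2 were Ccl2, with a difference of 0.92 ± 0.40, and Cxcl1, with 0.80 ± 0.38, both with an adjusted p of 0.58 by edgeR. The male effect on Cxcl1 went from −0.43 to −0.15 without room air male replicate 1. Over the alternative fits it ran from −0.92 to −0.39. DESeq2 gave 0 calls with 1 member under that p. No sex-specific effect of hyperoxia on a chemokine or receptor gene was therefore detectable with 3 lungs per group.

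Females and males were compared over both exposures, and 1 of 56 members was called, against 1.22% of all genes. Cxcr3 (ENSMUSG00000050232, chrX:101731535-101734269), the receptor of Cxcl9 and Cxcl10 on activated T and NK cells, was higher in females. Females had 5.49, 6.17 and 5.06 CPM in room air and 7.17, 6.71 and 4.73 CPM in hyperoxia, and males 3.98, 3.13 and 3.45 against 2.22, 3.05 and 2.44 CPM. Every female lung lay above every male lung, and the log2 fold change was 0.97 ± 0.17, adjusted p = 0.0011 by edgeR. Of all genes, 0.886% were higher and 0.312% lower without overlap, and among members Cxcr3 was the 1 higher and 0 were lower. At an unadjusted p under 0.05 there were 4 members higher and 4 lower, against 4.05% and 2.83% of all genes.

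Cxcr3 lies on the X chromosome, where background reads also differed between the sexes. Of 1802 X-linked genes tested, 456 were called higher in females, with a median log2 fold change of 0.75, and the 8 X-linked olfactory and vomeronasal receptor genes had a median of 0.95 with 5 called, where the autosomal ones had −0.16. The mean density on the X-linked receptor genes was 16.5 reads per kilobase in females and 8.82 in males. Background reads at that density made up 22% to 62.3% of the counts of Cxcr3, which were 55 to 97 in females and 28 to 48 in males. With them subtracted, the log2 fold change was 0.96 but the call was lost (adjusted p = 0.57 by edgeR). Calls between the sexes fell over all genes with that subtraction, as given in the last section. T and NK cell markers had a median of 0.01 between the sexes with 0 of 13 called, and the part of these cells in the Cxcr3 value was not tested.

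Beyond the members, 44 genes of chemokine signalling, from G proteins and kinases to adaptors, were looked at as a list. It also held Ccrl2, Cmklr1 and Rarres2, and Ppbp and Pf4, chemokines whose symbols the name rule did not match. None of the 44 was called in hyperoxia over all lungs, 35 were lower and 9 higher, and their median log2 fold change was −0.13 (all genes 0.03). In females 40 of 44 were lower with a median of −0.28 (all genes 0.11), and in males 21 of 44 with a median of 0.01. Markers of several cell types were lower in the same hyperoxia females, with 0 called: 8 of 8 of alveolar type 2 cells (median −0.54), 6 of 6 of type 1 cells (−0.46), 9 of 9 of capillary endothelium (−0.43) and 7 of 7 of club and airway cells (−0.58). Their part in the female values of the list was not tested. Fgr, a Src family kinase of myeloid cells, was at −0.35 over all lungs with an adjusted p of 0.77 by edgeR. Of 19 NF-kappaB components and feedback genes, 15 were lower with 0 called and a median of −0.13. In females 17 of 19 were lower (median −0.30) and in males 14 of 19 were higher (median 0.06).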

How the data were processed

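RNA-Seq of 12 miR-30a-/- mouse lungs was analysed from the raw counts per gene that the authors deposited. The authors trimmed reads with Trim Galore, aligned them to GRCm38 (mm10) with STAR and counted them with featureCounts. Whether strand was used in counting is not given in the sources used here, and the sources name different library kits. Members were matched by symbol and biotype. The members and gene lists were chosen with earlier results of these data known.

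Counts were fitted over all 45828 genes kept by filterByExpr with edgeR 4.0.16 (R 4.3.3; quasi-likelihood, robust, upper-quartile scaling, 4 group means). Calls needed an adjusted p (Benjamini-Hochberg) below 0.05 together with a fold above 1.5, as in the study. RUVr, used by the study with a factor number not stated, and DESeq2 1.42.0 were alternatives; ComBat-seq was not repeated. CPM used the scaled library sizes. Background was the median reads per kilobase of 1490 olfactory and vomeronasal receptor genes times exon length (GENCODE M21). Totals were 8763033 to 16741694 counts per lung; floors cover counting error only. Lungs are separate animals, but litters are not identified, so p-values measure the spread between lungs.

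Named with every lung were members that were called, members whose exposure values did not overlap over all lungs or within a sex, and the 5 highest and 5 lowest changes over all lungs and 3 and 3 within each sex, with at least 1 CPM on average; the 15 highest per kilobase were named by level. Animal numbers 2 and 5 occur in both female groups, but their deviations correlated at 0.0596 and −0.166, so they were not taken as pairs. Number 1 occurs in both male groups, and with a single shared number no block was fitted there. Values of some genes are not reported here; they stayed in the fits and counts.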

Additional observations from a re-analysis of the deposited data

Results flagged for a closer look

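In groups of 6 lungs of one exposure, a lung was looked at again where its gap to the next lung exceeded 0.625 of the whole range. This held for 8 of 116 groups, where chance gives about 1 in 20. Room air male replicate 1, the lung with the muscle genes, was the highest room air lung for Cxcl13 (5.40 CPM) and Ccl24 (4.98 CPM) and the lowest for Ccl25 (25.8 CPM). Hyperoxia male replicate 2, the lung with the fewest counts and the highest receptor gene share, was the highest hyperoxia lung for Ccl4 (4.90 CPM) and Ccr6 (12.4 CPM). Cxcr1 was highest in hyperoxia female replicate 5 (6.19 CPM), Cxcl2 in room air male replicate 5 (4.98 CPM) among room air lungs, and Ackr4 in hyperoxia male replicate 3 (19.5 CPM).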

How the results depend on the processing

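The count of members called stayed at 0 for hyperoxia over all lungs, in females, in males and for the interaction under every alternative run, with a range of 0 to 0 when each lung was left out. Between females and males it was 1 in all of them except with background reads subtracted, an alternative chosen after seeing the data, where it was 0 and Cxcr3 was at 0.96 without a call; leaving out each lung gave 0.91 to 1.06 for Cxcr3. With the receptor share as a covariate, Cxcl15 and Cxcl14 in females were at 0.0037 and 0.091, opposite in sign to the values reported. That share went partly with exposure in females. With the animal number as a replicate block, run in females alone, 0 members were called. Over all genes, the counts called for hyperoxia over all lungs, in females, in males, for the interaction and between the sexes were 19, 1, 0, 0 and 559. They were 92, 1898, 16, 2102 and 1006 with 1 RUVr factor, 118, 1945, 71, 2223 and 1044 with 2 factors, and 40, 89, 0, 0 and 791 with DESeq2. Without room air female replicate 6 the female count was 206, with the 6 female lungs alone 80, and with the covariate 22. Between the sexes it was 1004 with no filter, 977 with the covariate, 266 with 10 counts in every lung and 18 with background subtracted. The cause of these differences was not tested. Members with under 50 counts per lung, Ccl4 among them, are limited by depth.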
